A study of Mus musculus with 4 samples.

Results

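C1q-high macrophages were cells of mouse lung tumors chosen by their own complement transcripts: at least 10 unique molecular identifiers (UMIs, each 1 captured transcript) summed over C1qa, C1qb and C1qc, fewer than 4 over the alveolar macrophage genes Marco, Fabp1, Ctsk and Atp6v0d2, and none of Cd3d, Cd3e, Cd3g or Cd79a. The rule was applied to cells with at least 200 genes and a low share of UMIs in mitochondrial genes, and it chose 2124 of 19892 such cells, or 10.7% (exact 95% binomial interval 10.3 to 11.1), from 20351 cells in all. These cells came from microdissected lung tumors of 4 female mice. The 2 Restored mice were homozygous for the gene trap allele Lkb1XTR and had LSL-tdTomato and the tamoxifen-activated recombinase FLPo-ERT2 at Rosa26. The 2 Non-Restored mice had the same Lkb1 and LSL-tdTomato alleles and no FLPo-ERT2. Tumors were started with intratracheal lentiviral Cre and grown for 16 weeks, and every mouse, of either group, received tamoxifen in 4 mg doses for 2 weeks, so that the Lkb1XTR allele and tamoxifen were shared by all. Cre delivered to the airway switches on the Lkb1 gene trap and the tdTomato reporter in any cell it enters, whereas FLPo-ERT2, which removes the trap once tamoxifen activates it, is carried in every cell of a Restored mouse. No normal lung was part of the series, so interstitial and tumor-associated macrophages cannot be told apart here. The deposited matrix pooled the 4 mice with no label on each cell. It was therefore 1 sample, Restored and Non-Restored cells were not compared, no test was possible, and every interval below covers counting error only.

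C1q is the recognition molecule that starts the classical complement pathway. It is assembled from the A, B and C chains encoded by C1qa, C1qb and C1qc, binds immune complexes and dying cells, and is made mainly by macrophages rather than by the liver. In the lung, alveolar macrophages live in the airspaces, clear surfactant and depend on PPARgamma, while interstitial macrophages sit in the tissue, express C1q and MHC class II, and are commonly divided into perivascular cells marked by Lyve1, Folr2 and Cd163 and cells with high MHC class II and Cx3cr1. Monocytes entering a tumor can also become C1q-expressing macrophages.

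The 3 chains are neighbouring genes on the minus strand of mouse chromosome 4 (GRCm38, GENCODE vM21): C1qb at chr4:136880129-136886187, C1qc at chr4:136889804-136893065 and C1qa at chr4:136895917-136898803, with gaps of 3616 and 2851 bases between them. The promoters of C1qb (chr4:136886151-136886450, minus strand) and C1qc (chr4:136892865-136893164, minus strand), taken from RefSeq on GRCm38.p6, are shown because these genes set the membership and were expressed in near fixed proportion. Capitals mark GAGGAA, the core bound by the myeloid factor PU.1, or its reverse complement TTCCTC, searched on both strands. Each promoter held 1 match, and 28.3% of all 32851 promoters of the same length in the table held at least 1.
C1qb: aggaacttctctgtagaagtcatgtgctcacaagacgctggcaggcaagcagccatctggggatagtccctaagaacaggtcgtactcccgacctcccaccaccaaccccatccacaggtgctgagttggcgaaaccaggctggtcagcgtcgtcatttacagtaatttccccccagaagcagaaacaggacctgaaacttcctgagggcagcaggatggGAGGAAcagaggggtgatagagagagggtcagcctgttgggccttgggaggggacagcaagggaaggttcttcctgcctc
C1qc: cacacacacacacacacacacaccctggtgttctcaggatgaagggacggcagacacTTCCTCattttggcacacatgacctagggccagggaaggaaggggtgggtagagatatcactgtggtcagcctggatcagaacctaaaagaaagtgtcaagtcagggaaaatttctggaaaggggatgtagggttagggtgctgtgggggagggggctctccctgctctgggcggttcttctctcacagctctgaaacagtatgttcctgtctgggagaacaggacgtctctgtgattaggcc

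Among the members, the C1q sum had a median of 41 UMIs per cell (quartiles 25 and 59, range 10 to 172), which was a median of 1.01% of a cell's UMIs. All 3 chains were detected in 2081 of 2124 members. Levels are given as CPM, the UMIs of a gene summed over the cells of a class and scaled to a total of 1000000. C1qa was at 3761 CPM (3723 to 3799.9), C1qb at 3654 and C1qc at 2297. Every one of these values was fixed by the rule and is description only. C1qa made up 38.7% of C1q UMIs, C1qb 37.6% and C1qc 23.6%. In T cells, which do not make C1q, the 3 chains summed to 383 CPM against 9712 in the members, and their proportions there were 38.7%, 38.7% and 22.6%. Endothelial cells were at 21.1 CPM. A further 142 cells met the C1q and alveolar conditions but carried UMIs of Cd3d, Cd3e, Cd3g or Cd79a and were left out by the rule.

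The alveolar condition separated the members from alveolar macrophages with few cells between them. Of the members, 2057 had no UMI of the 4 alveolar genes, and only 22 cells without the lymphoid UMIs had both 10 or more C1q UMIs and 4 or more alveolar UMIs. The 8 members with 2 or 3 alveolar UMIs had 3481 CPM of Chil3, an alveolar macrophage chitinase-like protein, and the 2 cells just outside, with 4 or 5, had 18855. At the C1q limit there was no such step in Chil3, which was at 30.2 CPM inside and 64.5 outside. The 79 members with 10 or 11 C1q UMIs and the 57 cells with 8 or 9 had Cd74 at 28994 and 28697 CPM, Ccl17 at 4169.8 and 4239, Epcam at 1026 and 918, Csf1r at 305 and 466, and Apoe at 249.6 and 265. Lyz2 was at 903 and 1354. Lyz2 and Csf1r were thus lower just inside the limit than just outside it.

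**Figure D1:**
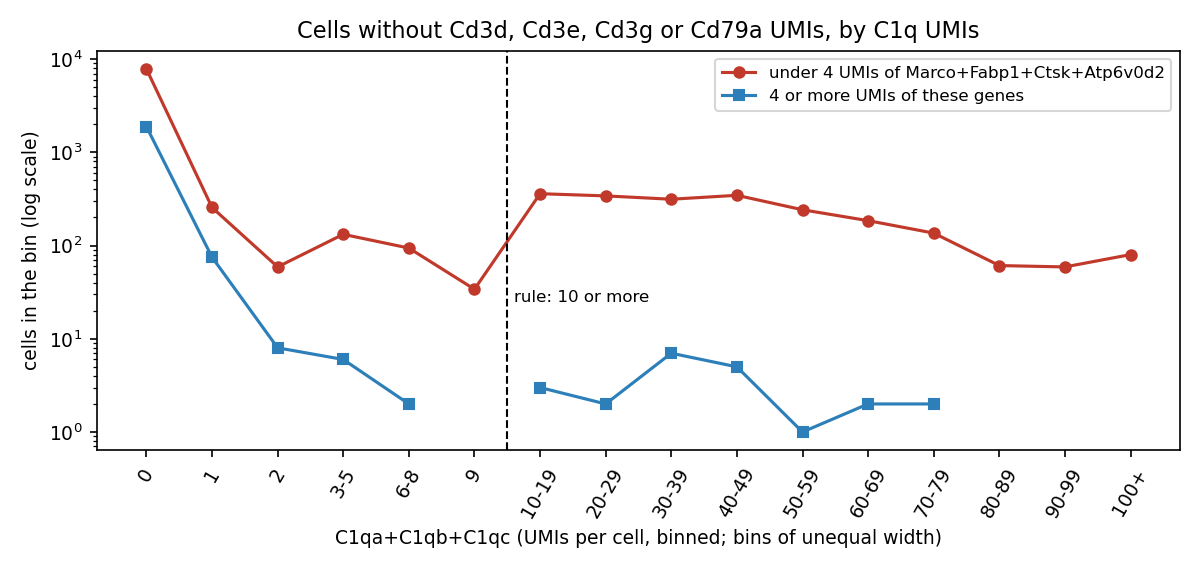
Number of cells without Cd3d, Cd3e, Cd3g or Cd79a UMIs (y axis, log scale) by the number of C1qa+C1qb+C1qc UMIs per cell (x axis, bins of unequal width), for cells with under 4 UMIs of the 4 alveolar macrophage genes (circles) and with 4 or more (squares); empty bins are not drawn. Members are the circles to the right of the dashed line, where squares never exceed 7 cells in a bin, while circles are present in every bin to the left of it.

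The label was checked against its defining markers. Csf1r, the receptor for the macrophage growth factor CSF1, was at 566 CPM, the Fc receptor Fcgr1 at 109 and Adgre1, which encodes F4/80, at 123, against 92.6, 10.7 and 14.9 in 230 dendritic cells chosen by Flt3, Xcr1, Clec9a and Cd209a. The dendritic cell genes Flt3 and Zbtb46 were at 1.03 and 7.28 CPM in the members. By Csf1r, Fcgr1 and Adgre1 the members thus lay above the dendritic class. The 6 macrophage markers listed, with those genes among them, summed to 1553 CPM in the members and 241 in dendritic cells. Alveolar macrophages were at 1187. Monocytes, which Csf1r had helped to choose, were at 1586, so the list did not set the members above them. Apoe, the lipid carrier apolipoprotein E, and Ms4a7, a membrane protein of macrophages, were given as markers and were not used by the rule. Apoe was at 4190.1 CPM (4149.6 to 4231) and Ms4a7 at 408 (396 to 421), against 35.6 and 23.4 in alveolar macrophages, 324 and 7.29 in monocytes, and 11.6 and 0.827 in dendritic cells. However, these averages rested on a minority of cells. With each cell thinned to 2000 UMIs, which kept 2079 members and left out the 45 shallower ones, Apoe was detected in 34.9% (32.8 to 37.0) and Ms4a7 in 34.4% (32.3 to 36.5) of them, and in all UMIs the median member had 0 of either. In T cells, which served as a background, the shares were 2.62% and 0.747% at the same depth, where 1338 T cells reached 2000 UMIs and 2370 did not. T cells were chosen with no limit on C1q, so macrophage RNA in some of them can raise this background here and below. Before thinning the median depth was 4346 UMIs in members and 1742 in T cells, and the unthinned Apoe shares were 38.5% and 2.08%. The members without Apoe and Ms4a7 carried another set of genes, described next.

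Most C1q-high macrophages had transcripts of only 1 of 2 gene sets. One set was Apoe and Ms4a7. The other was Ccl17, a chemokine that attracts CCR4-expressing T cells, together with Epcam, an adhesion molecule best known from epithelium, and Plet1, a surface protein of epithelia and some myeloid cells. This contrast was chosen after the levels had been seen. Among the 2079 members thinned to 2000 UMIs, 817 (39.3%) had UMIs of Apoe or Ms4a7 and none of Ccl17, Epcam or Plet1, 959 (46.1%) had the reverse, 117 (5.63%) had UMIs of both sets and 186 (8.95%) of neither. With at least 3 UMIs required, 712 cells passed for Apoe and Ms4a7 alone, 859 for the Ccl17 set alone and 23 for both, and 485 (23.3%) passed for neither. Over these cells, as a description of log counts that share libraries and depth, Ccl17 had a Pearson correlation of 0.60 with Epcam and 0.55 with Plet1, and of -0.49 with Apoe, -0.52 with Ms4a7 and -0.61 with Lyz2, the gene of lysozyme. Apoe had one of 0.56 with Ms4a7 and 0.54 with Lyz2. C1q itself differed in amount and was present with either set: the median C1q share of UMIs was 1.49% in cells with only Apoe or Ms4a7 and 0.541% in cells with only the Ccl17 set, or 54 and 27 UMIs per cell.

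**Figure D2:**
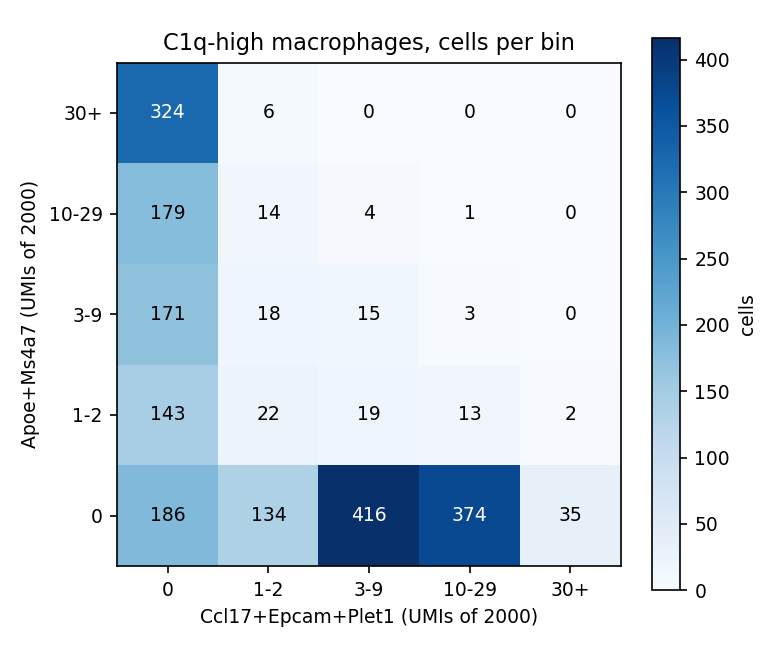
Number of C1q-high macrophages (color and printed count) by UMIs of Apoe+Ms4a7 (y axis) and of Ccl17+Epcam+Plet1 (x axis), each cell thinned to 2000 UMIs. Most of the 2079 cells lie along the left column or the bottom row, and 186 had no UMI of either set.

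To describe this contrast across all genes, the 519 thinned members above the 75th percentile of Apoe+Ms4a7 (more than 10 UMIs of 2000), called Apoe-high below, were set against the 1145 with 0 UMIs, called Apoe-zero, using all of their UMIs. Of 5448 genes compared, 241 (4.42%) were at least 2-fold higher in Apoe-high cells and 237 (4.35%) at least 2-fold lower, on log2(CPM + 10). The Apoe and Ms4a7 levels themselves were fixed by this choice. Of the 10 genes farthest toward Apoe-high cells, 5 encoded chemokines. Cxcl13, the B cell chemokine, was at 903 CPM and at 0 UMIs in Apoe-zero cells, at least 1811-fold higher given a floor of 3 UMIs. Ccl8, a ligand of monocyte and T cell receptors, was at 778 CPM with 1 UMI in all Apoe-zero cells (log2 ratio 12.19, 95% interval 9.71 to 17.50). Ccl12 was at 705 and 31.2 CPM, Ccl7 at 432 and 27.9, and Pf4, platelet factor 4, at 644 and 28.8. The monocyte-attracting chemokine genes Ccl7 and Ccl12 can share reads with related family members, so the split between them is less certain. Vcam1, Saa3, the copper carrier Cp, Sash1 and the transcription factor Maf were also among the 10 genes farthest toward Apoe-high cells, with Maf at 164 and 3.82 CPM.

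In the other direction, Ccl17 was at 3223 CPM in Apoe-zero and 44.4 in Apoe-high cells (log2 ratio -6.18, 95% interval -6.51 to -5.87), Epcam at 632 and 14.6, Plet1 at 449.9 and 9.76, the cadherin Cdh1 at 194 and 7.59, Cd24a at 179 and 6.50, and Asgr2, a subunit of the asialoglycoprotein receptor, at 1058 and 97.0. AA467197, H2-DMb2, the histone gene Hist1h2ap and Ppp1r1a completed the 10 farthest toward Apoe-zero cells. Among further genes named after their values were seen, Irf4, a transcription factor of monocyte-derived and conventional dendritic cells, was at 90.9 against 9.21 CPM, Ccl22, the other CCR4 ligand, at 65.1 against 4.34, the decoy interleukin-1 receptor Il1r2 at 287 against 32.5, and Itgax, which encodes CD11c, at 228 against 102. The dendritic cell factors Irf8 and Batf3 did not follow, with Irf8 at 109 against 181 CPM and Batf3 at 44.5 against 41.2. Ccr2, the receptor that brings monocytes into tissue, was 320.4 against 102 CPM, whereas Cx3cr1, the fractalkine receptor, went the other way with 109 against 620.0.

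By the sum of 6 macrophage markers, Apoe-zero cells lay above the dendritic class. Csf1r was at 412 CPM in them and 925 in Apoe-high cells, Fcgr1 at 84.8 and 172, and Adgre1 at 59.3 and 278, against 14.9 in dendritic cells. The 6 macrophage markers listed summed to 1023 CPM in Apoe-zero and 2747 in Apoe-high cells, against 241 in the dendritic class. The lowest of them was Mertk, a receptor for dying cells, at 12.8 and 62.3 CPM. The 7 dendritic markers summed to 55.5 CPM in Apoe-zero and 11.4 in Apoe-high cells, against 787 in the dendritic class, where Flt3 and other genes of that list had chosen the cells. The dendritic class in turn held Ccl17 at 1131 and Epcam at 399 CPM. It was limited to cells under 3 C1q UMIs, so C1q-bearing dendritic cells fall outside it. Of 5460 genes, 5.82% were at least 2-fold higher in all members than in this class and 3.02% lower. Both shares were smaller than those against alveolar macrophages or monocytes. Whether Apoe-zero cells are macrophages or dendritic cells was not tested. The 10 alveolar macrophage markers listed, Plet1 among them, summed to 724 CPM in Apoe-zero and 120 in Apoe-high cells, against 29464 in alveolar macrophages. Of these, Plet1 was at 449.9 and 9.76 and Ear2 at 206 and 46.6, while Chil3 was at 58.2 and 50.4. Epithelial keratins did not accompany Epcam, with Krt8 at 1.16 CPM in Apoe-zero and 9.21 in Apoe-high cells against 772 in epithelial cells.

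By gene list, 13 of 15 resident interstitial genes compared were at least 2-fold higher in Apoe-high cells and 0 lower, with a median log2 ratio of 2.76 where the median of all genes was -0.10. Of the lysosome and lipid genes, 10 of 23 were higher and 1 lower: cathepsin D, Ctsd, was at 741 and 113 CPM, Ctsb at 1739 and 443, the tetraspanin Cd63 at 1185 and 193, and the cholesterol exporter Abca1 at 181 and 17.8. Trem2, a lipid-sensing receptor of macrophages in tumors and fat, was at 382 and 49.4. MHC class II was high in both groups. Cd74, the invariant chain, was at 25548 CPM in Apoe-high and 29602 in Apoe-zero cells, while 4 of 9 class II genes were at least 2-fold lower in Apoe-high cells, namely the peptide-loading genes H2-DMa, H2-DMb2 and H2-Oa and the class II transactivator Ciita (134 against 283). All 6 of 6 cell-cycle genes compared were lower in Apoe-high cells, with Mki67 at 12.5 against 52.2 and Stmn1 at 22.2 against 98.2. However, Mki67, Birc5 and Pclaf reached the 20 CPM needed for comparison only in Apoe-zero cells, so this count is partly set by that floor. Depth moved with this contrast: the median was 3444 UMIs per cell in Apoe-high and 4922 in Apoe-zero cells. Sftpc, the surfactant gene of tumor epithelium, was also higher in Apoe-high cells, at 1007 against 207 CPM, and the part of depth and of epithelial RNA in the contrast was not tested. With only cells of 2000 to 10000 UMIs, without members carrying TdTomato UMIs, or with at least 20 C1q UMIs, the counts of genes on each side stayed within 1.5 times of those given, while the log2 ratio of Ccl17 moved from -6.18 to -7.68, -8.08 and -8.01. With at least 20 C1q UMIs the share of thinned members with only the Ccl17 set was 37.3% and that with only Apoe or Ms4a7 46.1%, so that their order turned with the C1q limit.

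**Figure D3:**
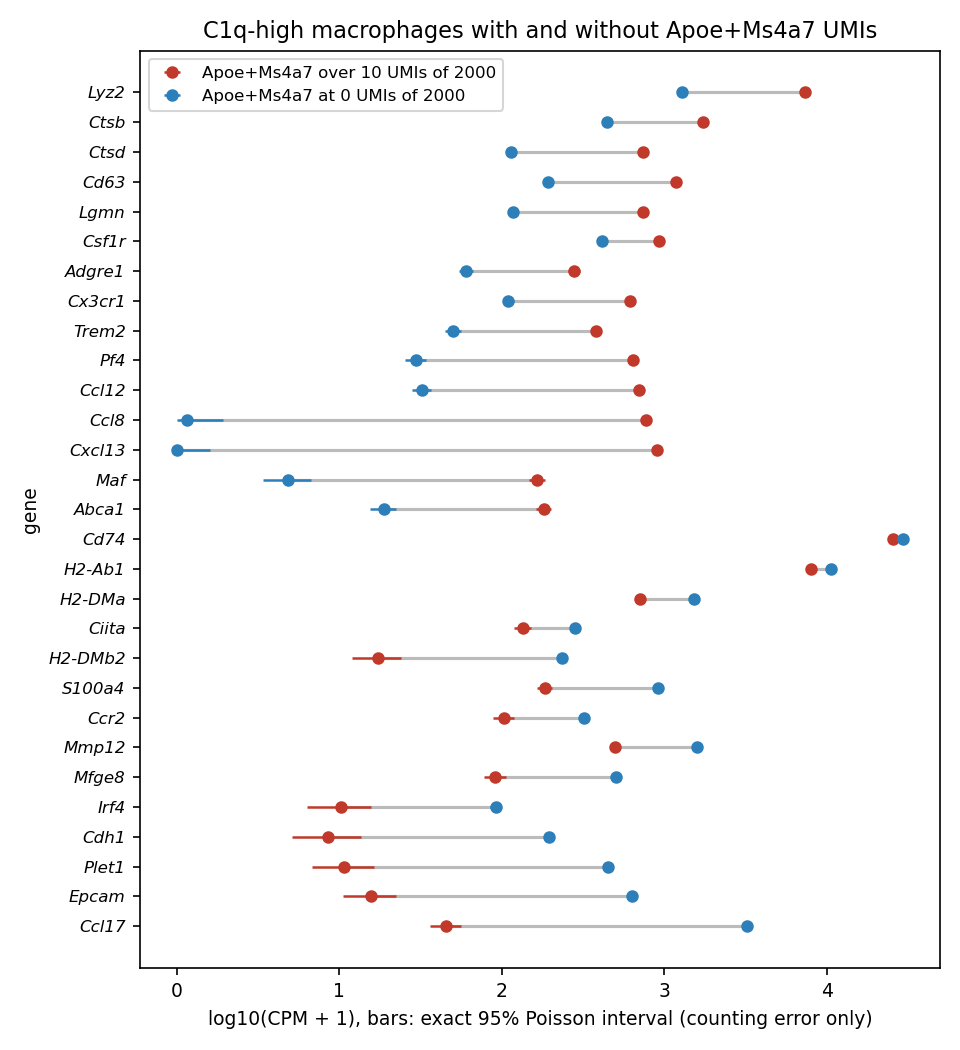
Levels of 29 genes, as log10(CPM + 1) (x axis), in the 519 Apoe-high and 1145 Apoe-zero C1q-high macrophages; bars are exact 95% Poisson intervals for counting error and are mostly smaller than the points. Lysosomal, resident and chemokine genes from Lyz2 to Abca1 lie higher in Apoe-high cells, Cd74 differs little, and Ccl17, Epcam, Plet1, Cdh1 and Irf4 lie higher in Apoe-zero cells.

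The members as a whole were then described against 1880 alveolar macrophages, chosen by at least 4 UMIs of Marco, Fabp1, Ctsk and Atp6v0d2. Of 6016 genes compared, 441 (7.33%) were at least 2-fold higher in C1q-high macrophages and 616 (10.2%) at least 2-fold lower, and against all other kept cells these shares were 4.50% and 10.1% of 6131 genes. MHC class II, which presents antigen to CD4 T cells, was higher in the members. Cd74 was at 28459.8 CPM against 796 in alveolar macrophages, H2-Ab1 at 9794 against 216, H2-Eb1 at 9568 against 188 and H2-Aa at 8996 against 284. All 9 class II genes compared of 10 matched were at least 2-fold higher, and their sum had a log2 ratio of 5.07 (5.05 to 5.09), with Ciita at 239 against 8.16. The same genes were near the level of dendritic cells, where Cd74 was at 20221 and H2-Aa at 7569 CPM, and well above monocytes, at 5277 and 1686.

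The 10 genes farthest above alveolar macrophages were Ccl17 (2089 against 3.50 CPM), Apoe, Asgr2 (723 against 0.807), the galactose-binding lectin Mgl2 (720.1 against 1.70), H2-Eb1, Tmem176b, Aif1, H2-Ab1, the nonclassical MHC gene H2-M2 (587 against 4.39) and Tmem176a. Aif1, which encodes the calcium-binding protein IBA1 of macrophages, was at 593 against 3.14. Tmem176a and Tmem176b are adjacent genes, at 685 and 710.4 CPM. The 10 genes farthest below were Chil3 (54.7 against 26583), the lysosomal glycoprotein Gpnmb (2.67 against 762), the protease inhibitor Slpi, Wfdc21, the carbonic anhydrase Car4 (1.33 against 484), Sort1, Ms4a8a, Cdc42ep3, the TdTomato reporter and the chemokine Ccl6 (233 against 4820.3). Of 29 transcription factor genes compared, 7 were at least 2-fold higher and 6 lower. Irf4 (63.0 against 2.24) and Runx3 (243 against 2.15) were higher in C1q-high macrophages. Pparg, which alveolar macrophages require, and Bhlhe41, a factor in their self-renewal, were at 2.56 and 3.49 against 108 and 121.

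**Figure D4:**
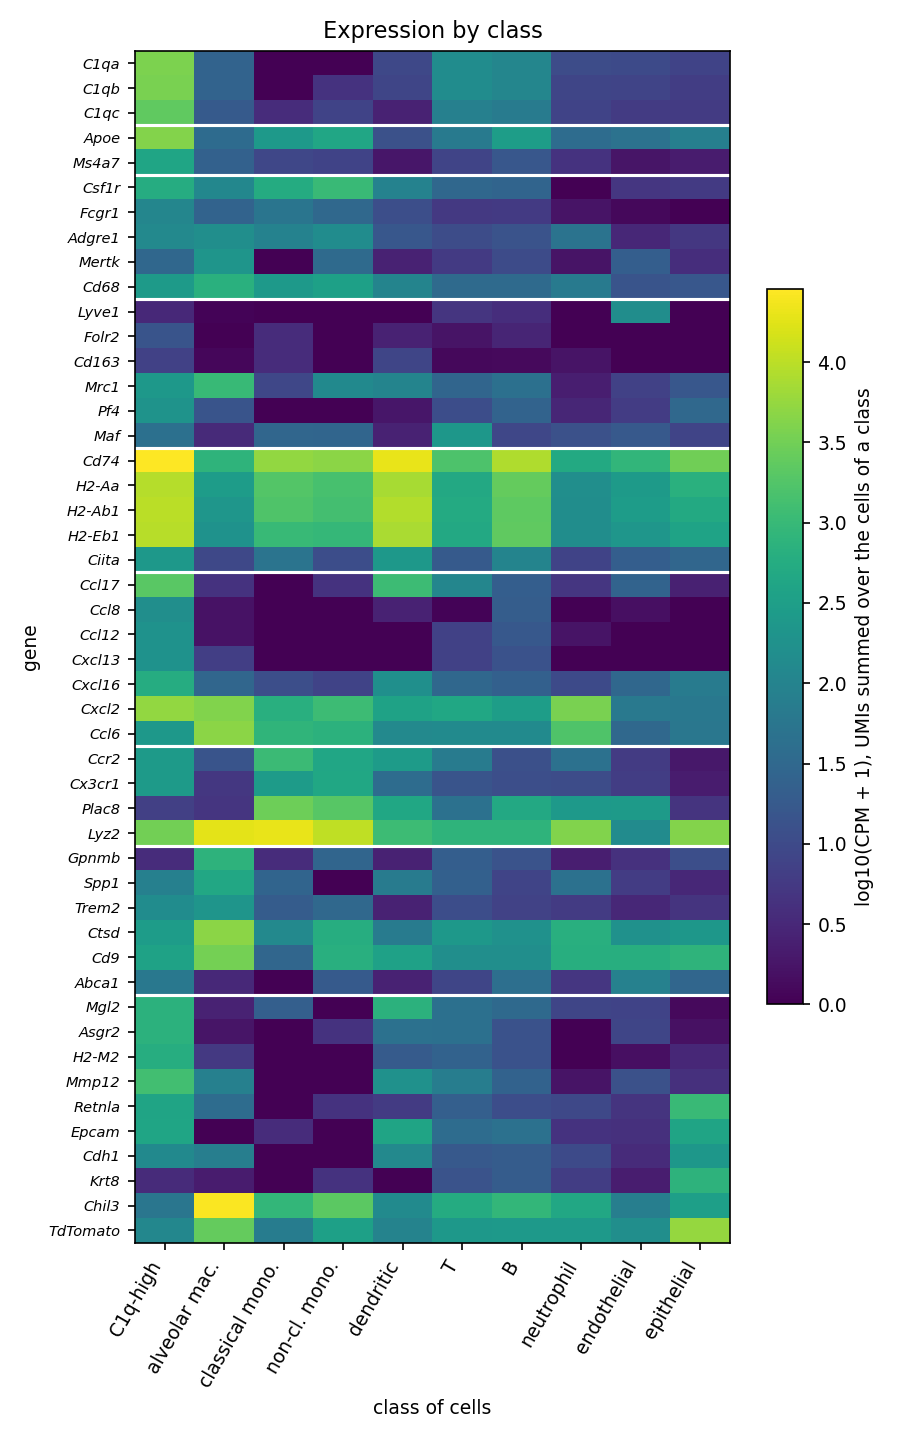
Levels of selected genes (rows, grouped by role) in 10 classes of cells (columns) as log10(CPM + 1), color scale from 0 to above 4. The C1q-high column shares MHC class II, Ccl17 and Epcam with dendritic cells and Cx3cr1 with monocytes, and is low in the Chil3 and Gpnmb of alveolar macrophages.

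Lipid and lysosome genes were lower than in alveolar macrophages, cells that take up surfactant: 13 of 25 were at least 2-fold lower and 1 was higher, and the list's sum had a log2 ratio of -1.34 (-1.35 to -1.33). Ctsd was at 287 against 4744 CPM, the tetraspanin Cd9 at 365 against 3398, and the fatty acid carrier Fabp4 at 1.13 against 187. Abca1 was the gene that went the other way, at 58.7 against 2.24. The iron store genes Fth1 and Ftl1, which have processed copies elsewhere in the genome and are less certain for that reason, were at 11459 and 4529.6 against 28701 and 9118. Of the macrophage core list, 8 of 14 were higher and 2 lower. The lower ones were Mertk, a receptor for dying cells, at 29.4 against 213, and the lysosomal protein Cd68 at 264 against 662.

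The genes of resident perivascular macrophages were low over all members. Lyve1 was at 2.26 CPM, Folr2 at 13.3, Cd163 at 6.36 and Timd4 at 2.46, and after thinning Lyve1 and Folr2 were detected in 0.481% (0.231 to 0.883) and 2.16% (1.58 to 2.89) of members. In Apoe-high cells they were higher, with Folr2 at 60.2 CPM against 0.332 in Apoe-zero cells (log2 ratio 7.50, 95% interval 5.61 to 10.56), Cd163 at 26.0 against 1.5 and Lyve1 at 9.21 against 0.665, where the Folr2 value in Apoe-zero cells rests on 2 UMIs. Lyve1 was itself at 150.2 CPM in endothelial cells. Of the resident interstitial list, 8 of 11 genes compared were at least 2-fold higher than in alveolar macrophages, led by Ccl12 (188 against 0.628), Ccl8 (159 against 0.628) and Pf4 (190.2 against 13.5), and 1 was lower, the mannose receptor Mrc1 (238 against 987). Because Mrc1 and Dab2 dominate the sum, its log2 ratio was 0.08 (0.05 to 0.11) although the median of the genes was 2.08. Within the members, the 383 thinned cells with more than 1 UMI of Folr2, Mrc1 and Pf4 were set against the 1211 with none. Retnla, the secreted alternative-activation protein RELMalpha, was at 1250.5 against 82.5 CPM, F13a1 at 105 against 2.92, Ccl8 at 674 against 47.8, Apoe at 10059 against 2594 and Ccl17 at 919 against 2603.

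**Figure D5:**
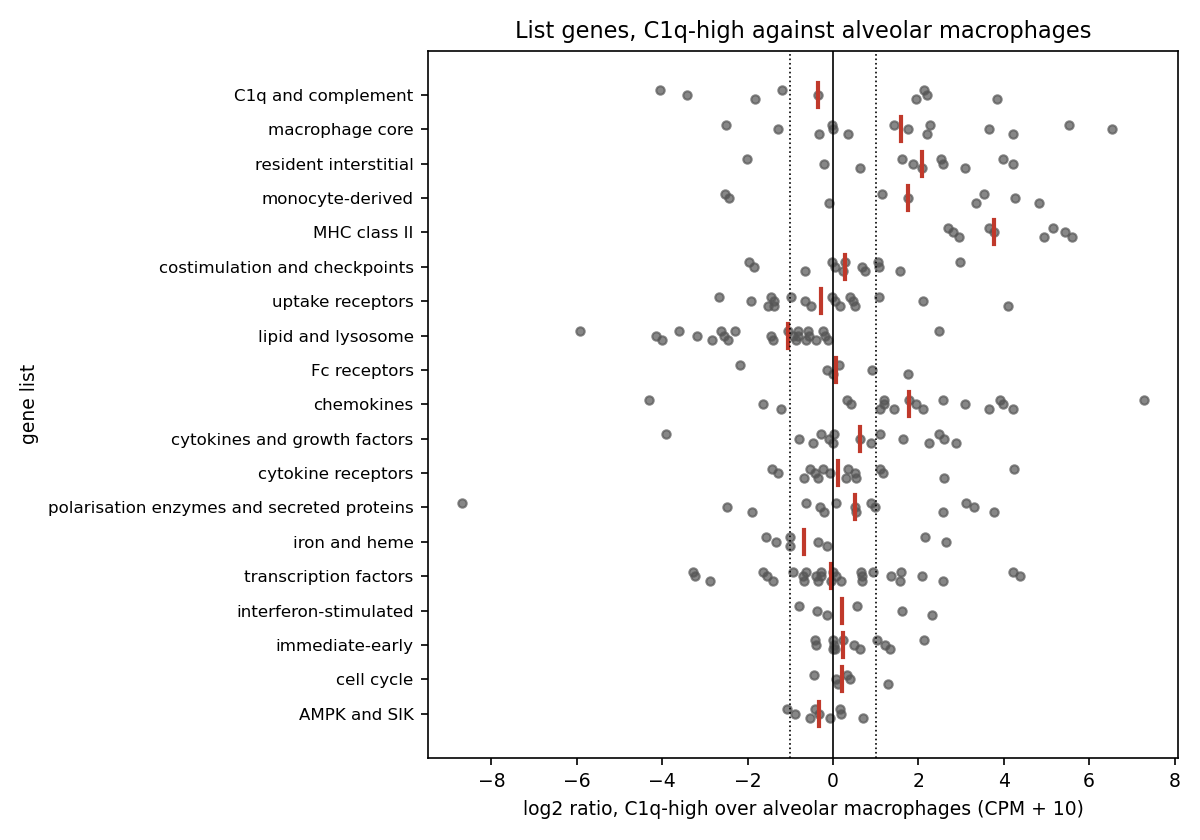
Log2 ratio of C1q-high over alveolar macrophages on CPM + 10 (x axis) for each gene compared (points) of 19 gene lists (y axis), with the median of each list (red bar), 0 (solid line) and a 2-fold difference either way (dotted lines). All 9 MHC class II genes lie to the right of the dotted line and 13 of 25 lipid and lysosome genes to the left of it.

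Monocytes were far fewer, with 246 cells of which 116 were classical and 126 non-classical, so that a gene with no UMI there is bounded only at 4.38 CPM. Of 5788 genes compared, 461 (7.96%) were at least 2-fold higher in C1q-high macrophages and 530 (9.16%) at least 2-fold lower. The 10 farthest above monocytes were Ccl17, Mmp12, Asgr2, H2-M2, Epcam, Retnla, Mgl2, the fusion receptor gene Dcstamp, Pmepa1 and Cxcl16. Mmp12, the macrophage elastase, was at 1296 CPM and at 0 UMIs in monocytes, at least 296-fold higher, and H2-M2 was at least 134-fold and Dcstamp at least 69.5-fold higher on the same floor of 3 UMIs over the class. Ccl17 had 1 UMI in monocytes (log2 ratio 10.48, 95% interval 8.01 to 15.79). All 9 class II genes compared were at least 2-fold higher. Among the monocyte-derived list, 11 of 14 were at least 2-fold lower and none higher: Plac8 was at 6.05 against 2550.0 CPM, Ifitm3 at 183 against 5030.0, Lyz2 at 3269.6 against 16014 and Ccr2 at 264 against 811. Cx3cr1 was closer, at 265 against 359 (log2 ratio -0.44, 95% interval -0.63 to -0.24). The monocyte subsets differed among themselves, with Ccr2 at 1106 CPM in classical and 425 in non-classical cells and Cx3cr1 at 279 and 442, so that the members were below both subsets for Ccr2. Apoe was at 250.2 and 432 in the classical and non-classical cells. The other genes far below monocytes were Ifitm6, Pglyrp1, Hp, Gm9733, Ms4a4c, Chil3, Adgre4 and F13a1.

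Interferon-stimulated genes were lower than in monocytes, with 7 of 9 compared at least 2-fold lower, such as the regulator Irf7 at 8.0 against 147 CPM and Isg15 at 19.6 against 81.7. Against alveolar macrophages, 2 of 6 were at least 2-fold higher and 0 lower. The higher genes were Ifi27l2a, at 505 against 93.5 CPM, and Ifi44, at 21.9 against 0.448. Because Ifi27l2a dominates the sum of the list, its log2 ratio of 1.43 (95% interval 1.37 to 1.495) does not describe the list as a whole. After thinning, 0.818% (0.477 to 1.31) of members had 5 or more UMIs of the list without Ifi27l2a. Cell-cycle genes were higher than in monocytes in 5 of 5 compared, with Mki67 at 41.2 against 1.46 and Stmn1 at 80.4 against 4.38. The monocyte values rest on 1 and 3 UMIs (log2 ratios 4.82, 95% interval 2.33 to 10.13, and 4.20, 95% interval 2.65 to 6.48). Both genes reached the 20 CPM needed for comparison only in the members, so this count is partly set by that floor. At 2000 UMIs a cell, 3.75% (2.98 to 4.66) of members had 3 or more cell-cycle UMIs, against 5.09% of alveolar macrophages and 10.5% of T cells.

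Many chemokine genes were expressed in these cells. Of 21 chemokine genes listed, 14 of 19 compared were at least 2-fold higher than in alveolar macrophages and 3 lower, 13 of 19 higher than in monocytes, where 1 was lower, and 11 of 19 higher than in dendritic cells, where 1 was lower and 5.82% of 5460 genes were higher and 3.02% lower. The neutrophil attractant Cxcl2 was the most abundant at 5419 CPM, detected in 87.6% of thinned members, although alveolar macrophages had 4026. Ccl17 followed at 2089 CPM in 46.5% of members, against 3.81% of T cells and 1.19% of endothelial cells as background. Cxcl16, the ligand of CXCR6, was at 568 CPM against 28.5 in alveolar macrophages and 10.2 in monocytes, and it was even between Apoe-high and Apoe-zero cells at 576 and 549 (log2 ratio 0.07, 95% interval -0.03 to 0.17). Ccl8, Ccl12 and Cxcl13 were restricted to fewer members, in 3.8%, 13.9% and 5.0% of them, and Ccl12 and Cxcl13 had no UMI in the dendritic class, so that they were at least 75.9-fold and 75.8-fold higher in the members. Ccl3 and Ccl6 were lower than in alveolar macrophages, at 301 against 716 and 233 against 4820.3. Among cytokines, Il1b was at 3089.6 CPM against 499 in alveolar macrophages and 2657 in monocytes, Il18 was at 37.6 against 705 in alveolar macrophages, and Il10 and Il12b were at 3.69 and 4.20.

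Other lists moved in both directions. Of complement genes beyond C1q, 4 of 9 were at least 2-fold higher than in alveolar macrophages and 4 lower. The C3a receptor gene C3ar1 was at 182 against 3.32 CPM and the alternative pathway factor properdin, Cfp, at 294 against 59.5, whereas C4b was at 24.7 against 359 and C3 at 22.6 against 105. Vsig4, a complement receptor of tissue macrophages, was at 1.23. Of uptake receptors, 3 of 18 were higher and 6 lower, with the bridging protein Mfge8 at 368 against 12.0, the scavenger receptor Msr1 at 34.8 against 107 and the lipid receptor Cd36 at 31.9 against 257. Of costimulation and checkpoint genes, 4 of 13 were higher and 2 lower, with Cd86 at 287 against 27.9 and Cd274, which encodes PD-L1, at 23.2 against 109. The classical polarisation enzymes were low in the members, with Arg1 at 10.9 CPM and Nos2 at 0, while Retnla was at 397 overall and detected in 3.56% of thinned members. Of genes of the LKB1 pathway, Stk11, which encodes LKB1, was at 20.9 CPM against 17.5 in alveolar macrophages (log2 ratio 0.26, 95% interval -0.03 to 0.55).

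The members were also split by MHC class II and by lipid-associated genes. Over the 2079 thinned cells, Cd74 had a Pearson correlation of -0.22 with Apoe and 0.23 with Ccl17, weaker than that between Apoe and Ccl17. The 507 thinned cells with the highest H2-Aa, H2-Ab1 and Cd74 sums (above 115 UMIs of 2000) were set against the 532 with the lowest (up to 79). Ccl17 was at 2840.0 against 849 CPM, Apoe at 3231 against 6582, H2-M2 at 921 against 292 and Hapln3 at 65.7 against 7.76, and in the other direction Fn1 was at 26.5 against 409.9, Pf4 at 46.8 against 473 and Spp1 at 32.8 against 192. Sftpc and S100a8, genes of epithelium and neutrophils, were also higher in the class II-low cells, at 1024 and 307 against 91.3 and 13.9 CPM, and their part in these differences was not tested. The 236 cells with more than 1 UMI of Gpnmb, Trem2 and Spp1, against 1502 with none, had Saa3 at 154 against 4.43 CPM, Ctsd at 947 against 174, fibronectin, Fn1, at 524 against 95.8, Apoe at 10706 against 2465 and Ccl17 at 221 against 2631. These splits draw on the same 2079 cells and are not independent of each other.

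Signs of other cells in the members are given for the whole lists. The 12 epithelial markers summed to 1040.3 CPM in the members and 126519 in epithelial cells. Epcam and Cdh1 made up 409.6 and 127 CPM of the members' sum. T cells, at 1476 CPM, and B cells, at 2395.9, lay above the members. The other myeloid classes lay below them, with alveolar macrophages at 294.9, monocytes at 188.2 and dendritic cells at 589.5. Alveolar macrophages were chosen to have no Epcam UMI, so their sum holds none of that gene and is not a like comparison. Neutrophils were close, at 999.1. The source of the members' epithelial transcripts was not tested. The stromal list summed to 48.3 CPM, the endothelial list to 20.9, and the T and NK cell list to 13.1 with 3 of its 8 genes at 0, some of them by the rule. Neutrophil markers summed to 246 CPM. Of 2124 members, 15 had 20 or more UMIs of S100a8 and S100a9, 11 had 3 or more of Cdh5, Cldn5 and Egfl7, 8 had 2 or more of Krt8, Krt18 and Cldn18, and 43 had 2 or more of Flt3, Xcr1, Clec9a and Cd209a. The tumor reporter TdTomato was at 116 CPM in the members against 240.2 in T cells, 2533 in alveolar macrophages and 5597 in epithelial cells, and after thinning 14.0% of members and 21.9% of T cells had a UMI of it. The 67 members with 3 or more TdTomato UMIs had Sftpc at 8209 CPM, against 69.0 in the 1553 members with none, and Chil3 at 689 against 31.4, while C1qa was at 4377 against 3724.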

How the data were processed

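Dissociated, viability-sorted tumor cells of 4 mice were profiled with 10x Chromium 3' version 3 chemistry. The authors aligned reads to mm10 with Cell Ranger 3.0.2 and deposited raw UMI counts per gene as 1 pooled matrix of 20351 cells and 31055 features, including GFP and TdTomato, with 58624795 UMIs and at least 500 per cell. Shared barcodes between libraries could not be counted, since cells are only numbered. The authors' later percentile filters and removal of tdTomato-positive cells outside the epithelium were not applied. Here 52 cells under 200 genes and 407 over the mitochondrial limit were left out. Classes were set by marker UMIs, without clustering, and 76 cells met several class rules. The median depth was 4346 UMIs in C1q-high macrophages, 5668 in alveolar macrophages and 2688 in monocytes. No doublet caller was run; a marker-based removal was an alternative.

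UMIs were summed per class and scaled to CPM, with exact Poisson intervals, exact conditional intervals for ratios and Clopper-Pearson intervals for shares, all at 95% and for counting error only. Genes with at least 20 CPM in either class were compared on log2(CPM + 10), genes of either class rule left out, and counted past 2-fold. Cells were thinned to 2000 UMIs with a fixed seed for shares and for splits of the members. With 1 sample no test was run. Genes were named as the 10 farthest each way with at least 50 CPM and as members of 20 lists (323 of 325 names matched, and 2 were not analysed here); some genes are not reported here. The members and lists were chosen with earlier results of these data known, and the contrast of Apoe and Ms4a7 with Ccl17, Epcam and Plet1 after their levels had been seen. Genes named only within a split were chosen after their values were seen. The interval code was tested on simulated data. Python 3.11.15, numpy 2.4.6, scipy 1.17.1, pandas 2.3.3 and matplotlib 3.10.9 were used. C1q coordinates come from GENCODE vM21 and promoters from RefSeq, both on GRCm38.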

Additional observations from a re-analysis of the deposited data

How the results depend on the processing

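The share of C1q-high macrophages, 10.7%, became 11.5% with at least 5 C1q UMIs, 8.87% with at least 20, 7.81% without members carrying TdTomato UMIs, and 5.52% when cells with any UMI of Epcam, Cdh5, Col1a1, Ms4a1, Nkg7 or Siglech, or 10 of S100a8 and S100a9, were left out. The same removal without Epcam, added after Epcam had been seen in the members, gave 10.4%. The MHC class II log2 ratio against alveolar macrophages (5.07) was 5.38 with an alveolar limit of 8 UMIs, 5.16 with genes per cell up to the 98th percentile, 5.15 with cells of 2000 to 10000 UMIs, 5.09 without TdTomato and 4.97 with the first removal. The resident interstitial ratio (0.08) was 0.00470 and 0.26 with 5 and 20 C1q UMIs, 0.14 with the 98th percentile, 0.0320 without TdTomato, 0.35 with cells weighted equally and 0.86 with the first removal, which takes out every member with an Epcam UMI, and its interval included 0 with 5 C1q UMIs and without TdTomato. The lipid and lysosome ratio (-1.34) was, in the order of C1q at 5 and 20 UMIs, an alveolar limit of 8, no mitochondrial limit, the 98th percentile, the first removal, no TdTomato, 2000 to 10000 UMIs and equal weights, -1.38, -1.25, -1.38, -1.33, -1.30, -0.996, -1.36, -1.32 and -1.27. Genes at least 2-fold apart numbered 1057 against alveolar macrophages and 991 against monocytes, 418 and 341 with a pseudocount of 50 CPM, and 656 against monocytes with a floor of 50 CPM. The share of thinned members with only Apoe or Ms4a7, 39.3%, passed that with only the Ccl17 set, 46.1%, with at least 20 C1q UMIs, where they were 46.1% and 37.3%. The log2 ratios listed kept their sign under each setting run, and the causes of these shifts were not tested. No paired analysis was possible because the pooled matrix does not tie cells to mice. Depth limits the rarer classes most: 3 UMIs are 4.38 CPM in monocytes and 0.308 in the members.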

Other observations

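Signalling genes of the C1q-high macrophages not described above are given here by list, beside the shares of all genes past 2-fold given for the same comparisons. Of cytokine and growth factor genes, 6 of 15 compared were at least 2-fold higher and 1 lower than in alveolar macrophages, and 9 of 16 higher and 0 lower than in monocytes. Tnfsf13b, which encodes the B cell survival factor BAFF, was at 56.1 CPM against 1.79 in alveolar macrophages and 11.7 in monocytes, the 4-1BB ligand gene Tnfsf9 at 72.4 against 1.17 in alveolar macrophages, and Pdgfb, a growth factor for pericytes and fibroblasts, at 50.1 against 2.60. Vegfa, the vascular growth factor gene, was at 31.2 against 3.32. Of cytokine receptor genes, 4 of 16 compared were at least 2-fold higher and 2 lower than in alveolar macrophages, and 3 of 17 higher and 5 lower than in monocytes. Il1r2 was at 206 CPM against 1.52 in alveolar macrophages and 33.6 in monocytes, and Il21r at 57.4 against 1.17 and 10.2.

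Of Fc receptor genes, 1 of 6 compared were at least 2-fold higher and 1 lower than in alveolar macrophages, and 3 of 6 higher and 1 lower than in monocytes. Fcgr1 was the gene higher than in alveolar macrophages. The inhibitory receptor gene Fcgr2b, at 638 CPM, was at least 2-fold above monocytes (178) and not above alveolar macrophages (331), while the activating receptor gene Fcgr4 was at 17.0 against 113 and 146. Of polarisation enzymes and secreted proteins, 4 of 15 compared were at least 2-fold higher and 3 lower than in alveolar macrophages, and 7 of 14 higher and 2 lower than in monocytes. Ptgs2, which encodes the prostaglandin synthase COX-2, was at 175 against 8.70 CPM in alveolar macrophages, and the membrane protease gene Mmp14 at 52.5 against 0.538. Of iron and heme genes, 2 of 8 compared were at least 2-fold higher and 4 lower than in alveolar macrophages, and 1 of 8 higher and 0 lower than in monocytes. Of immediate-early genes, which tissue dissociation can induce, 4 of 13 compared were at least 2-fold higher and 0 lower than in alveolar macrophages, and 1 of 13 higher and 0 lower than in monocytes, with Fosb at 607 against 104 CPM in monocytes. Of AMPK and SIK genes, 0 of 9 compared were at least 2-fold higher and 1 lower than in alveolar macrophages, and 0 of 8 higher and 0 lower than in monocytes, the lower gene being the AMPK catalytic subunit Prkaa1 at 9.84 against 32.0.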
